A study of Mus musculus with 10 samples.

Results

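Imprinted growth-control genes were compared between 2 fractions of mouse hematopoietic stem cells. The 10 genes H19, Igf2, Igf2r, Grb10, Meg3, Dlk1, Plagl1, Peg3, Ndn and Gnas were taken by symbol from a count table of 24544 genes, and all 10 had a row. They were chosen by name as imprinted genes linked to stem cell quiescence. The cells were long-term hematopoietic stem cells from the bone marrow of Hoxb5-mCherry mice aged 2 to 3 months, a strain in which a red fluorescent protein reports Hoxb5. Both fractions were negative for lineage markers, CD48, FLK2 and CD34 and positive for cKIT, SCA1, CD150 and the Hoxb5 reporter. Sorting for surface neogenin-1 then parted them into 5 NEO1+ and 5 NEO1- libraries. A library held 250 to 500 cells from 2 pooled mice, so single animals were not resolved. The labels do not say whether a NEO1+ and a NEO1- library came from the same mice. P-values therefore measure the spread between these pools, part of which may be technical. By its title, the series addresses NEO1 as a marker that separates Hoxb5+ stem cells of myeloid bias from those of balanced output.

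An imprinted gene is transcribed mainly from the allele of one parent, as marked by DNA methylation laid down in the germ line. Many genes expressed from the paternal allele, such as Igf2, Dlk1, Plagl1 and Peg3, act on growth, and many expressed from the maternal allele, such as H19, Igf2r, Grb10 and Meg3, restrain it. In blood stem cells, imprinted domains such as H19/Igf2 and Dlk1-Meg3 are known for their part in keeping long-lived cells quiescent. The counts did not separate the parental alleles, so levels were measured and allelic origin was not.

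Library totals ran from 21.2 to 38.9 M counts (M, 1000000), and the ribosomal RNA precursor Rn45s took 27.9% to 42.4% of them. Levels are given in CPM, counts per 1000000 of library size, after scaling by TMM (trimmed mean of M-values). A count of 0 allows up to 3 counts, which is 0.0699 to 0.144 CPM depending on the library; amplified reads without molecular identifiers are not independent molecules, so this limit covers counting error only. Neo1, the transcript of the sorted protein, reached 12.5 to 64.8 CPM in cells sorted as NEO1+ and 4.56 to 18.9 CPM in those sorted as NEO1-. NEO1+ library 4, at 12.5 CPM, was as low as libraries sorted as NEO1-, so results were also computed without both libraries numbered 4. The table listed 12800 to 13808 genes with a count per NEO1+ library and 11477 to 13147 per NEO1- library. With this number as a covariate no imprinted gene passed in edgeR either, but log2 fold changes moved. Among them were H19 from -1.45 to -0.21, Igf2 from -0.01 to 0.89 and Igf2r from 0.32 to -0.63. The well-expressed Grb10 moved from -0.01 (SE 0.20) to -0.40 (SE 0.24). All 16 stem cell markers examined were detected and tested, with a summed level of 3379 to 3750 CPM for NEO1+ and 3264 to 3788 CPM for NEO1-. Of these 16, Tek and Ctnnal1 were higher in NEO1+ at an unadjusted p under 0.05, a threshold that 6.6% of all genes tested met in either direction, and none passed adjustment (edgeR adjusted p 0.155 and 0.637).

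The 10 imprinted genes fell into a group that was well expressed in every library and a group that was low or patchy, and neither held a gene that passed the test between fractions. Gnas, Ndn, Grb10 and Meg3 stood above 26 CPM in all 10 libraries, and their log2 fold changes lay between -0.02 and 0.06. Igf2r, Igf2, H19, Dlk1, Plagl1 and Peg3 averaged under 10 CPM over the libraries, and the difference between the 2 means was smaller than the larger SD of the fractions for each of them. Of the 10 genes, 8 were retained by the filter on low counts and tested by edgeR's quasi-likelihood test, and 0 of 8 passed an adjusted p of 0.05, also without both libraries numbered 4. Of all 12203 genes tested, 0 passed as well, which is 0% as background. At an unadjusted p under 0.05 the number was 0 of 8, against 806 of all genes, or 6.6%. The median log2 fold change of the 8 was -0.01, against 0.01 for all genes tested. The CPM ranges of the fractions overlapped for all 10 genes, whereas they did not overlap for 2.48% of the genes tested. In bulk libraries, fewer cells with a transcript and less transcript per cell cannot be told apart.

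**Figure D1:**
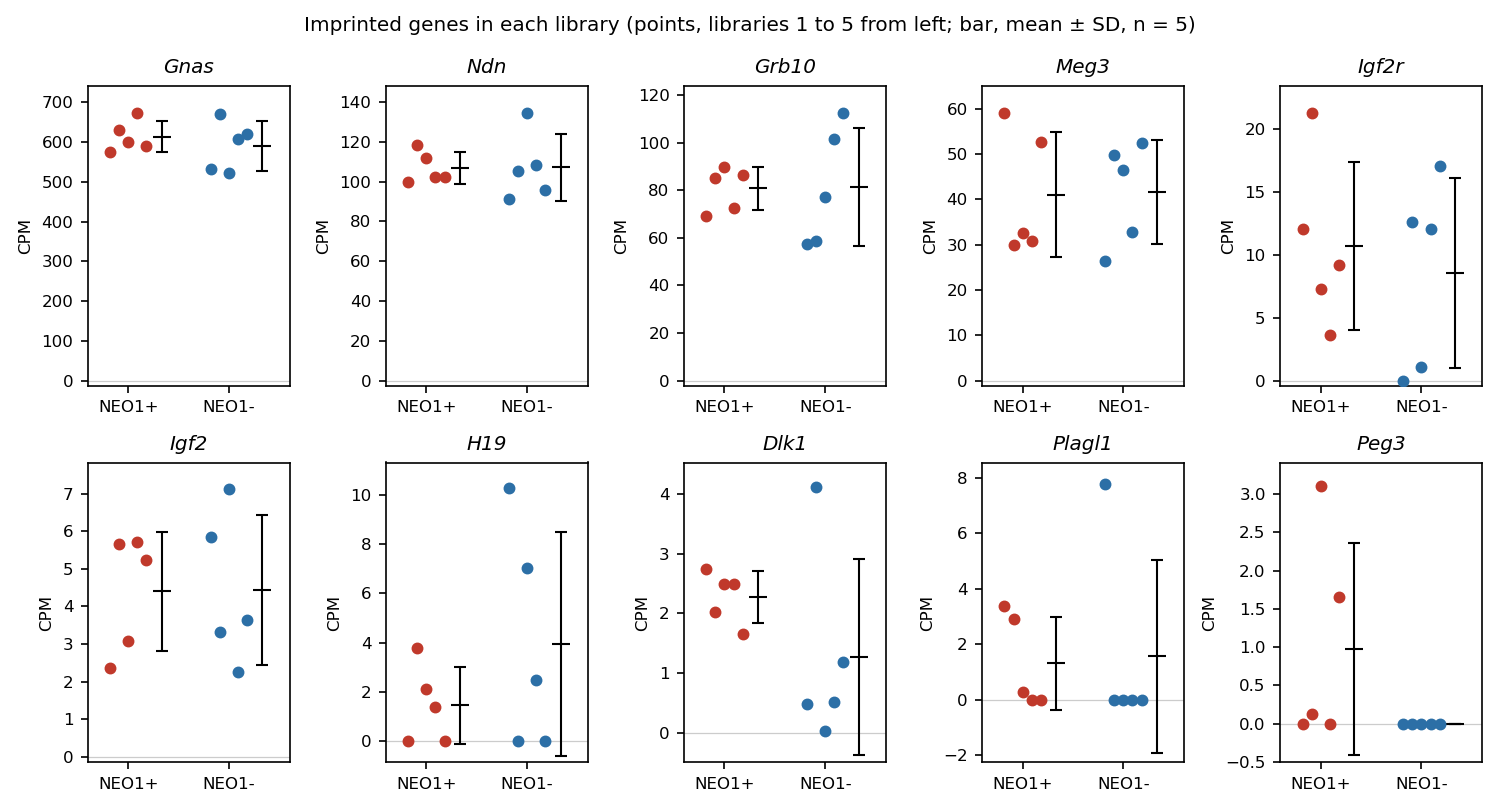
CPM of each of the 10 imprinted genes (vertical axes, each starting at or below 0) in NEO1+ (red) and NEO1- (blue) libraries. Points are libraries 1 to 5 from left to right, and the black bar is the mean with SD (n = 5). Gnas, Ndn, Grb10 and Meg3 were present in all 10 libraries, while H19, Plagl1 and Peg3 were at 0 in several.

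The promoters of imprinted genes are often rich in CpG, the site of the methylation that marks the parental allele. RefSeq windows of 300 bases (250 before to 50 after a start site, GRCm38.p6) matched 9 of the 10 genes, all but H19, with 17 windows. An observed over expected CpG ratio above 0.6 was found in 11 of the 17, in 7 genes, against 35.8% of 32851 windows of all genes. The 17 windows are not separate units, as some genes have several. The Gnas windows starting at 174327499 and 174327518 share most of their bases. Shares of windows are therefore a description only. The windows were also searched on both strands for TGCCGC, the letters that the imprint-keeping factor ZFP57 binds when they are methylated. It occurred in 4 of 17 windows, in Igf2, Grb10, Meg3 and Plagl1, against 11.6% of all windows. These 4 are shown because they pair the motif with genes of contrasting level, from Grb10 in every library to Plagl1 in 4 of 10. They are written 5′ to 3′ along the gene, with TGCCGC or its reverse complement GCGGCA in capitals:
Grb10, chr11:12037371-12037670, minus strand: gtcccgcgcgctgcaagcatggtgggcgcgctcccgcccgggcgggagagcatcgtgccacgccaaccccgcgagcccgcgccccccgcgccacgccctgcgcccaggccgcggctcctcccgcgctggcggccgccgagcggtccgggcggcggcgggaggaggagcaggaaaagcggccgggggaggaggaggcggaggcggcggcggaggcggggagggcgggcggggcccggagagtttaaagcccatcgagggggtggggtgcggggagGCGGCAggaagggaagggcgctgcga
Meg3, chr12:109540746-109541045, plus strand: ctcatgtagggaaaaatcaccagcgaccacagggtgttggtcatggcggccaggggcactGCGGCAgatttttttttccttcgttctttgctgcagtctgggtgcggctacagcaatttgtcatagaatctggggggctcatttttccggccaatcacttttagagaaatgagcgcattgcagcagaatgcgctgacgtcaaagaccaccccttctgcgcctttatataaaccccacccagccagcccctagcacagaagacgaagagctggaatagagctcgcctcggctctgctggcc
Igf2, chr7:142661222-142661521, minus strand: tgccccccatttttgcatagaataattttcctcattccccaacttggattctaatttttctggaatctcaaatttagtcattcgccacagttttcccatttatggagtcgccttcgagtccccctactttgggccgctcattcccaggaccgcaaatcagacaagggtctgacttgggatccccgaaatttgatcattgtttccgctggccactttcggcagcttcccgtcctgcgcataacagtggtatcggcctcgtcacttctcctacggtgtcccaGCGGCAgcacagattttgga
Plagl1, chr10:13090582-13090881, plus strand: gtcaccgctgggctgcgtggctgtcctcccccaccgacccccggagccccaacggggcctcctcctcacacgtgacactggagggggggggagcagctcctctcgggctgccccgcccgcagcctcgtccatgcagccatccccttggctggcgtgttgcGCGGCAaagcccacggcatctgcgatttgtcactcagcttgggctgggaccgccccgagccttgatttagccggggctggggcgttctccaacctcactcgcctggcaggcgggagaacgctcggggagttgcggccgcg
The Grb10 window held 45 CpG, the Plagl1 window 26, the Igf2 window 14 and the Meg3 window 13, against a median of 7 over all windows. A match describes the letters only; methylation and binding were not measured.

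Gnas encodes the stimulatory G protein alpha subunit, which couples receptors to cAMP production, and its locus also yields imprinted transcripts under other promoters. It lies on chromosome 2 from 174284320 to 174346744 on the plus strand (GRCm38, GENCODE). NEO1+ libraries 1 to 5 held Gnas at 575, 630, 600, 673 and 589 CPM, against 532, 671, 522, 607 and 621 CPM for NEO1- libraries 1 to 5. NEO1- libraries 1 and 3 lay below every NEO1+ library, and the other 3 lay within the NEO1+ range. The means were 614 ± 39.1 and 591 ± 62.8 CPM (SD, n = 5 each). NEO1+ over NEO1- gave a log2 fold change of 0.06 (SE 0.09), with a 95% interval of 0.914 to 1.18 on the fold scale and an edgeR adjusted p of 0.997. Its biological coefficient of variation, the spread between libraries beyond counting error, was 0.152, the lowest of the 8 tested genes. The table gives 1 value for the locus, so its alternative products, which include Nesp and XL-alpha-s, were not resolved. The antisense transcript Nespas had its own row, with 0 CPM in 8 libraries and at most 1.31 CPM, in NEO1+ library 5.

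Ndn encodes necdin, a growth-suppressing protein expressed from the paternal allele and known in blood stem cells as a p53 target that favours quiescence. It has 1 annotated transcript, on chromosome 7 from 62346569 to 62350262 (plus strand). For Ndn, NEO1+ libraries 1 to 5 gave 99.6, 118, 112, 103 and 102 CPM, and the NEO1- libraries, in the same order, 91.6, 105, 135, 108 and 95.8 CPM. NEO1- libraries held both the lowest and the highest value. The means were 107 ± 7.86 and 107 ± 16.8 CPM (SD, n = 5 each), with a log2 fold change of -0.0034 (SE 0.14). The 95% interval ran from 0.815 to 1.22 on the fold scale (edgeR adjusted p 0.9997).

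Grb10 encodes an adaptor that binds the insulin and IGF1 receptors and dampens their signal, from the maternal allele in most tissues. It spans chromosome 11 from 11930508 to 12038683 on the minus strand. Grb10 was at 69.3, 85.1, 89.9, 72.7 and 86.4 CPM in NEO1+ libraries 1 to 5. The NEO1- libraries, again 1 to 5, had 57.2, 58.7, 77.0, 101 and 112 CPM. The NEO1- libraries spread to either side of all NEO1+ libraries, with an SD of 24.9 against 9.08 CPM around means of 81.3 and 80.7 CPM (n = 5 each); the difference in spread was not tested. Grb10 had a log2 fold change of -0.01 (SE 0.20), with a 95% interval of 0.733 to 1.34 on the fold scale (edgeR adjusted p 0.9997).

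Meg3 is a long noncoding RNA made from the maternal allele of the Dlk1-Meg3 domain, on chromosome 12 from 109541001 to 109571726 (plus strand). Its level was 59.1, 29.8, 32.7, 30.8 and 52.6 CPM for NEO1+ libraries 1 to 5, against 26.3, 49.9, 46.5, 32.9 and 52.5 CPM for NEO1- libraries 1 to 5. High and low libraries occurred in both fractions. The means were 41.0 ± 13.8 and 41.6 ± 11.4 CPM (SD, n = 5 each). Meg3 had a log2 fold change of -0.02 (SE 0.27), with a 95% interval of 0.655 to 1.48 on the fold scale (edgeR adjusted p 0.9997). Meg3 also carries microRNAs in its annotated exons, and the arms of miR-770 (chr12:109563710-109563731 and chr12:109563744-109563765) are shown because the host transcript was abundant here (RefSeq, GRCm38.p6, plus strand; capitals mark the seed, bases 2 to 8):
mmu-miR-770-5p: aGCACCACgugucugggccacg
mmu-miR-770-3p: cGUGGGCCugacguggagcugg
The row of Mir770 in the table held 0 counts in all 10 libraries, and that of Meg3 827 to 1812. The cDNA was poly(A)-primed and miR-770 lies within exons of Meg3, so the Mir770 row cannot say whether the microRNA was present.

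**Figure D2:**
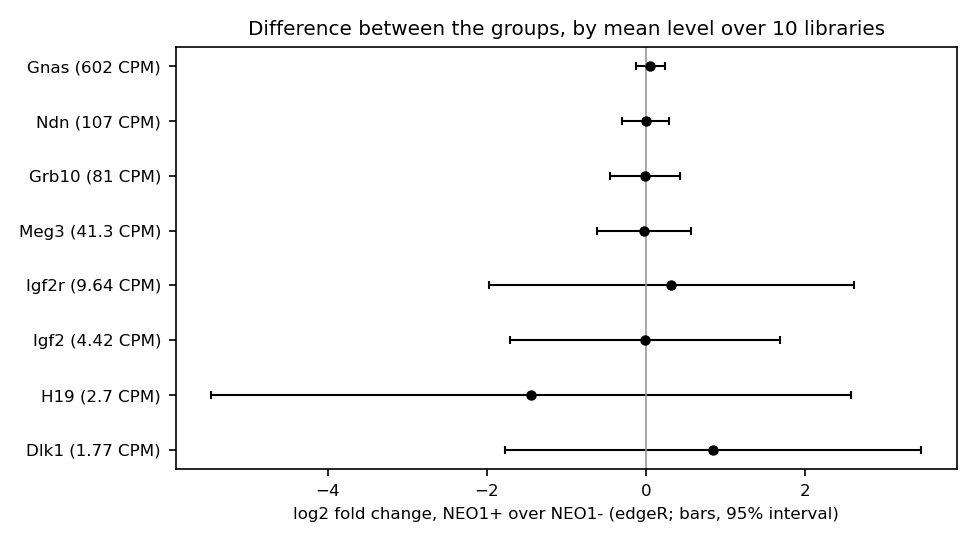
Log2 fold change of NEO1+ over NEO1- (horizontal axis) with its 95% interval from edgeR for the 8 genes tested, ordered by mean CPM over the 10 libraries. The intervals of Gnas, Ndn, Grb10 and Meg3 are narrow around 0, and that of H19 spans -5.47 to 2.58.

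H19 and Igf2 share an imprinted domain on chromosome 7, where enhancers serve H19 on the maternal and Igf2 on the paternal allele. H19, a noncoding RNA known to hold back IGF signalling in adult stem cells, lies between 142575529 and 142578143 on the minus strand. H19 stood at 0, 3.76, 2.10, 1.37 and 0 CPM for NEO1+ libraries 1 to 5, and at 10.3, 0, 7.01, 2.46 and 0 CPM for NEO1- libraries 1 to 5. Each fraction thus had 2 libraries with no H19 count, and the highest 2 values were in NEO1- libraries 1 and 3. The means were 1.45 ± 1.58 and 3.95 ± 4.55 CPM (SD, n = 5 each). edgeR gave a log2 fold change of -1.45 (SE 1.87, 95% interval -5.47 to 2.58, adjusted p 0.989), so a difference in either direction was not detectable at this spread. The difference in mean log2 CPM was -0.79 (exact two-sided permutation p 0.619), and its direction turned to 0.07 without NEO1- library 1. The first exon of H19 holds the microRNA through which part of its growth restraint is known to run, and its arms (chr7:142577112-142577133 and chr7:142577078-142577099) are shown for that reason (RefSeq, GRCm38.p6, minus strand; capitals mark the seed, bases 2 to 8):
mmu-miR-675-5p: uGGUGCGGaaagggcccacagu
mmu-miR-675-3p: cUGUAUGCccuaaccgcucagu
The Mir675 row held 0 counts in all 10 libraries, which for the same reasons cannot say whether this microRNA was present.

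Igf2, which encodes insulin-like growth factor 2, lies between 142650766 and 142666816 on the same strand. All 10 libraries held it, with 2.35, 5.65, 3.08, 5.72 and 5.23 CPM for NEO1+ libraries 1 to 5 and 5.86, 3.32, 7.11, 2.25 and 3.64 CPM for NEO1- libraries 1 to 5. The extremes were both in NEO1- libraries, and the means of 4.41 ± 1.58 and 4.44 ± 1.99 CPM (SD, n = 5 each) nearly coincided. Its log2 fold change was -0.0098 (SE 0.79), but its 95% interval of 0.305 to 3.23 on the fold scale was wide (edgeR adjusted p 0.9997). Across the 10 libraries, the deviations of H19 and Igf2 from their group means had a Pearson r of 0.44 (exact permutation within groups, p 0.252, Benjamini-Hochberg adjusted 0.697 over 36 pairs) and a Spearman rho of 0.51 (exact permutation p 0.215, adjusted 0.621). Without the 2 libraries farthest from the median of H19, r was 0.42.

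Igf2r encodes the receptor that clears IGF2 from the cell surface and sorts lysosomal enzymes, and Airn is the antisense RNA of its domain, made from the paternal allele. Igf2r lies on chromosome 17 from 12682406 to 12769664 (minus strand). For NEO1+ libraries 1 to 5 the level was 12.1, 21.3, 7.32, 3.62 and 9.23 CPM, and for NEO1- libraries 1 to 5 it was 0, 12.6, 1.08, 12.0 and 17.1 CPM. All NEO1+ libraries held Igf2r, and NEO1- libraries 1 and 3 were the lowest of the 10. The means were 10.7 ± 6.67 and 8.56 ± 7.59 CPM (SD, n = 5 each), and edgeR gave a log2 fold change of 0.32 (SE 1.07, 95% interval -1.98 to 2.62, adjusted p 0.998). The direction was not stable: leaving out NEO1+ library 2 gave a log2 fold change of -0.09 and leaving out NEO1- library 1 one of 0.00046, and it was -0.63 with the number of detected genes per library as a covariate. Airn ranged from 1.57 to 12.0 CPM in NEO1+ and from 0 to 7.02 CPM in NEO1-. Strand use in the authors' counting is not given in the sources used here, so reads of Igf2r and Airn cannot be told apart where they overlap.

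Dlk1 encodes a membrane protein related to Notch ligands and is expressed from the paternal allele of the Meg3 domain, on chromosome 12 from 109452823 to 109463336 (plus strand). Dlk1 was at 2.74, 2.02, 2.49, 2.49 and 1.65 CPM in NEO1+ libraries 1 to 5. NEO1- libraries 1 to 5 had 0.478, 4.12, 0.0339, 0.517 and 1.19 CPM. NEO1+ libraries lay close together, and 4 of 5 NEO1- libraries were below all of them, while NEO1- library 2 was above all. The means were 2.28 ± 0.435 and 1.27 ± 1.65 CPM (SD, n = 5 each). edgeR gave Dlk1 a log2 fold change of 0.85 (SE 1.22, 95% interval -1.77 to 3.47, adjusted p 0.996), and the exact two-sided permutation p for the mean log2 CPM was 0.0794. Without NEO1- library 2, 1 of the 10 libraries left out in turn, the fractions no longer overlapped, with at most 1.19 CPM in the 4 other NEO1- libraries. The exact permutation p was then 0.00794, the smallest that 126 assignments allow. As library 2 was the only one that broke the separation, leaving it out fixed this p in advance, and it is not support for a difference. The edgeR log2 fold change was then 2.03 (SE 1.32), and its unadjusted p of 0.150 did not pass. Without both libraries numbered 4 the exact permutation p was 0.229, and over the 9 other single libraries left out it ranged from 0.0794 to 0.143. The counts behind these values were 57 to 107 per NEO1+ and 1 to 88 per NEO1- library. Meg3 and Dlk1 had a Pearson r of 0.15 for their deviations from the group means over the 10 libraries (exact permutation p 0.699, adjusted 0.888 over 36 pairs; Spearman rho 0.28, exact permutation p 0.429, adjusted 0.772). Without the 2 libraries farthest from the median of Meg3, r was 0.11.

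Plagl1 and Peg3 encode zinc finger proteins expressed from the paternal allele; PLAGL1 is known to activate other imprinted genes and to slow the cell cycle. Both were too low for the filter and were not tested in the main edgeR fit. Without the filter, edgeR gave Plagl1 a log2 fold change of -0.24 (SE 2.34, unadjusted p 0.919, adjusted 0.993). Peg3 then had 7.95 (SE 2.92, unadjusted p 0.0187, adjusted 0.425), where 1834 of 15684 genes had an unadjusted p under 0.05. Plagl1, on chromosome 10 from 13060504 to 13131694 (plus strand), was at 3.36, 2.92, 0.28, 0 and 0 CPM in NEO1+ libraries 1 to 5. Among NEO1- libraries it was at 7.77 CPM in library 1 and at 0 in the 4 others. The single NEO1- library with Plagl1 held 244 counts, more than any NEO1+ library, so the gene whose CpG-rich promoter is printed above was present in 4 of 10 libraries. This 1 library gave 54.2% of the CPM summed over the 10 libraries. The mean was higher in NEO1- by CPM, at 1.55 ± 3.47 against 1.31 ± 1.68 (SD, n = 5 each), and higher in NEO1+ by log2 CPM, with a difference of 1.36 and an exact two-sided permutation p of 0.524.

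Peg3, on chromosome 7 from 6703892 to 6730431 (minus strand), was at 0, 0.128, 3.10, 0 and 1.65 CPM in NEO1+ libraries 1 to 5 and at 0 in all 5 NEO1- libraries. With 195 counts pooled over NEO1+ libraries and a limit of 3 counts over the NEO1- group, the pooled NEO1+ level was 55.6-fold that limit. Without NEO1+ library 3, which held 133 of the counts, this ratio was 23.6-fold. The limit covers counting error only and not the spread between libraries, so neither ratio is a minimum for the difference between the fractions. The exact two-sided permutation p was 0.167, and 2 of 5 NEO1+ libraries had no Peg3 count either. The exact permutation p was 0.0476 without NEO1+ library 1 or without NEO1+ library 4, the libraries at 0. Peg3 had counts in only 3 libraries, all NEO1+, and the others were tied at 0. Both of these permutation p values were therefore the smallest that the ties allow. The test could not pass over all 10 libraries, and leaving out a NEO1+ library at 0 only lowered that limit, so neither value is support for a difference. DESeq2, which tested all 10 genes, gave Peg3 an unadjusted p of 0.0167 and an adjusted p of 0.336. It was the only one of the 10 under 0.05 before adjustment, against a background of 9.06%, and 0 of 10 passed after adjustment, against 0.931%. With the replicate number as a block, DESeq2 gave Peg3 an unadjusted p of 0.152 and an adjusted p of 0.509. NEO1+ library 3 also had the highest summed level of erythroid markers, at 513 CPM, and of granulocyte and monocyte markers, at 5167 CPM; their part in the Peg3 value was not tested.

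**Figure D3:**
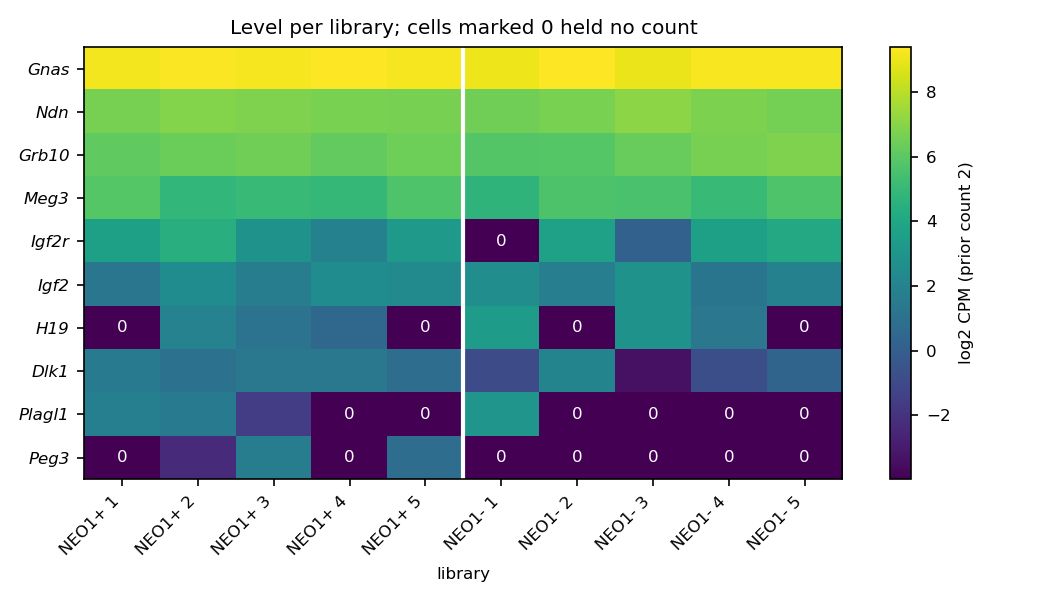
Log2 CPM (colour, prior count 2) of the 10 imprinted genes, ordered from the highest to the lowest mean CPM, in each of the 10 libraries (horizontal axis; the white line parts NEO1+ from NEO1-). Cells marked 0 held no count: 4 libraries for H19, 1 for Igf2r, 6 for Plagl1 and 7 for Peg3.

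Levels between genes were compared per kb of annotated exon (CPM divided by the length of the union of exons in GENCODE). Gnas was highest at 53.8 CPM per kb, followed by Ndn at 29.0, Grb10 at 8.91 and Meg3 at 2.28 CPM per kb, each above the next in 10 of 10 libraries. Meg3 was above H19, at 1.10 CPM per kb, in 8 of 10 libraries. The levels per kb of H19, Igf2r (1.04), Igf2 (0.773), Dlk1 (0.314), Plagl1 (0.183) and Peg3 (0.0366) overlapped between neighbours. This order depends on the length used. With the median transcript length Gnas remained the first and Peg3 the last, but Ndn came after Grb10 and Meg3, at 29.0 against 86.2 and 51.8 CPM per kb.

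The 9 genes detected in both fractions gave 36 pairs, whose deviations from the group means were correlated over the 10 libraries. Of these, 15 were positive, 2 had an unadjusted exact permutation p under 0.05, and 0 passed adjustment (smallest adjusted p 0.45 for Pearson r and 0.6 for Spearman rho). The 10 libraries thus gave no pair of imprinted genes whose variation together passed the test.

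Likeness of pattern was read, as a description over all 10 libraries that share depth and scaling, from the Pearson r of log2 CPM with the other genes tested. For the 3 most abundant genes the closest were Grb2 (r 0.94) and Ampd2 (0.93) for Gnas, Slc25a12 (0.92) and Sptan1 (0.92) for Ndn, and Dcbld1 (0.90) and Nlrp1a (0.90) for Grb10. These are the highest values among 12203 genes.

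Other genes known to be imprinted in at least some mouse tissues were examined as a list. Of 55 listed, 54 had a row, 15 were at 0 counts in every library and 31 were tested. None passed an edgeR adjusted p of 0.05, and 4 had an unadjusted p under 0.05 (12.9%, against 6.6% of all genes tested). Of the 20 tested genes expressed from the maternal allele, 2 of these were higher and 1 lower in NEO1+, and their median log2 fold change was 0.08. Of the 11 tested genes expressed from the paternal allele, 1 was lower, with a median of 0.18. Atp10a, a lipid flippase gene, averaged 36.7 ± 7.90 CPM against 16.2 ± 8.71 CPM, NEO1+ given first here and below (log2 fold change 1.18, SE 0.38, edgeR adjusted p 0.548). Gatm, which encodes the enzyme of the first step of creatine synthesis, was at 48.3 ± 15.4 and 30.1 ± 6.89 CPM (0.68, SE 0.26, edgeR adjusted p 0.624). Kcnq1ot1, the noncoding RNA that silences its domain in cis, was at 59.7 ± 22.2 and 102 ± 40.7 CPM (-0.77, SE 0.30, edgeR adjusted p 0.633). Ppp1r9a was at 28.7 ± 6.14 and 47.3 ± 18.2 CPM (-0.72, SE 0.27, edgeR adjusted p 0.607; SD, n = 5 each throughout). The next genes by p in each direction were Copg2 (-0.98, SE 0.51) among the maternal, and Sgce (-0.58, SE 0.37), Zrsr1 (1.03, SE 0.80) and Mkrn3 (2.20, SE 1.83) among the paternal, with edgeR adjusted p values of 0.810, 0.876, 0.921 and 0.935.

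Cdkn1c encodes p57, the imprinted inhibitor of cyclin-dependent kinases that is needed for stem cell quiescence. Cdkn1c reached 243, 251, 266, 178 and 212 CPM for NEO1+ libraries 1 to 5, against 200, 214, 182, 140 and 200 CPM for NEO1- libraries 1 to 5. The lowest value of each fraction was in the library numbered 4, and the ranges overlapped. Its log2 fold change was 0.30 (SE 0.14, 95% interval -0.0047 to 0.597), with an edgeR adjusted p of 0.757. Other imprinted genes of the domains above covered a wide range. Near Ndn, Ube3a was at 102 ± 7.81 and 95.01 ± 5.70 CPM, and Peg12 at 20.5 ± 3.49 and 15.2 ± 9.08 CPM (SD, n = 5 each, edgeR adjusted p 0.988 and 0.961). The CPM of Ube3a was close to that of Ndn, but this was not corrected for transcript length. Rian, downstream of Meg3, was at 3.52 ± 2.51 and 1.61 ± 1.50 CPM, and Mkrn3, near Ndn, at 5.84 ± 3.31 and 1.27 ± 1.80 CPM (SD, n = 5 each). The edgeR adjusted p of Rian was 0.982. Snrpn, Snurf and Magel2, also near Ndn, were listed at 0 in every library. As the counting tool and annotation are not given, a listed 0 cannot be told from reads that the counting did not assign, so absence of these transcripts was not shown.

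**Figure D4:**
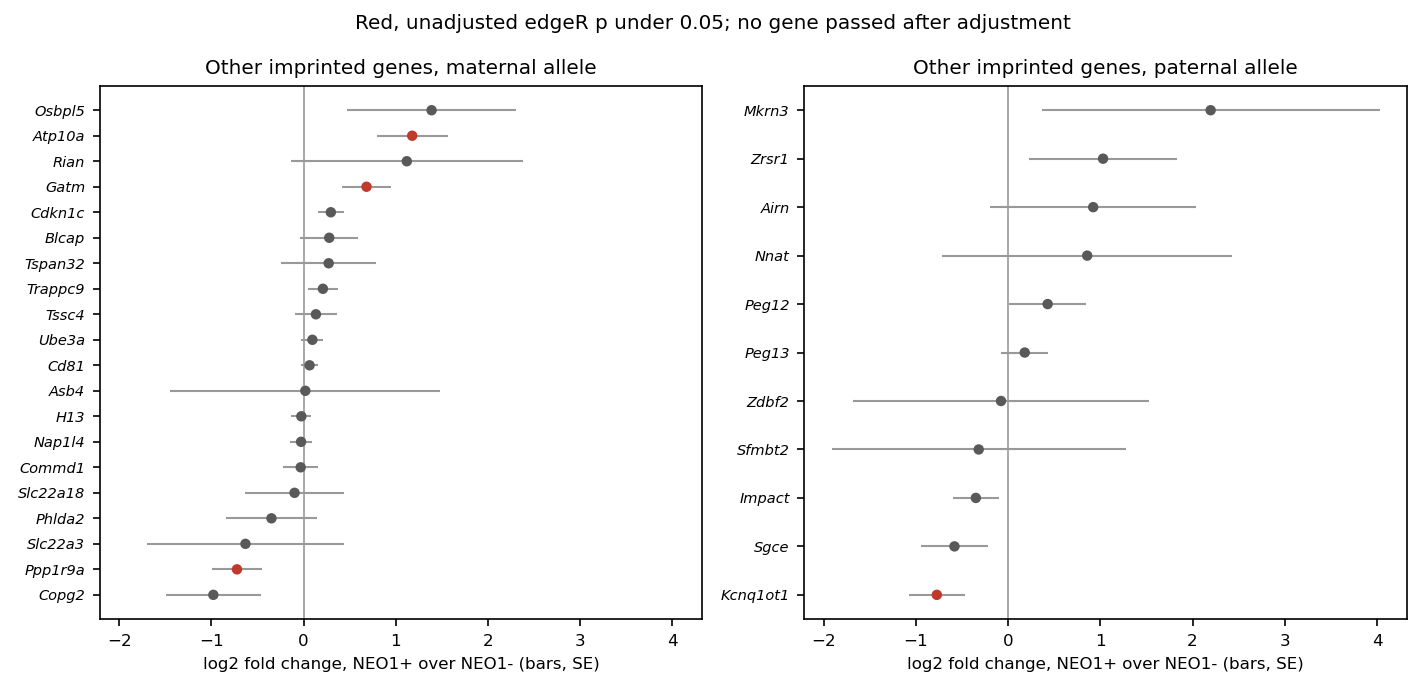
Log2 fold change of NEO1+ over NEO1- (horizontal axis; bars, SE) for 31 other imprinted genes tested, parted by the allele they are known to be expressed from. Red points had an unadjusted edgeR p under 0.05 (Atp10a, Gatm, Ppp1r9a and Kcnq1ot1), and none passed after adjustment.

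The pathways that these genes feed into showed no member past the threshold either. Of 38 genes of IGF and insulin signalling, 29 were tested, 0 passed, and 3 were higher and 1 lower at an unadjusted p under 0.05 (all genes tested, 380 higher and 426 lower, 6.6% in all), and their median log2 fold change was -0.04. Among genes with higher levels in NEO1+ the smallest p values were those of Igf2bp2, an RNA-binding protein gene named for its binding to Igf2 mRNA (log2 fold change 0.84, SE 0.31, edgeR adjusted p 0.604), and Akt1, a kinase downstream of the receptors (0.43, SE 0.16, edgeR adjusted p 0.624). Among those with lower levels they were those of Tsc2, an inhibitor of mTOR signalling (-0.46, SE 0.21, edgeR adjusted p 0.747), and Pik3cd, a subunit gene of the PI3 kinase (-0.21, SE 0.16, edgeR adjusted p 0.916). Of 26 genes of Gs alpha and cAMP signalling, all were tested, 0 passed, and 2 were higher and 1 lower at an unadjusted p under 0.05 (median 0.15), against the same 6.6%. These were the phosphodiesterase gene Pde7a (1.52, SE 0.50), the protein kinase A subunit gene Prkacb (0.48, SE 0.20) and the G protein beta subunit gene Gnb2 (-0.51, SE 0.19), with edgeR adjusted p values of 0.548, 0.691 and 0.604. The next lower gene was the gamma subunit gene Gng5 (-0.21, SE 0.12, edgeR adjusted p 0.854). Of 14 genes of Notch signalling, to which DLK1 is related, 12 were tested and 0 had an unadjusted p under 0.05 (median 0.07). Among the genes of this list, the protease gene Adam17 (0.40, SE 0.33), the receptor gene Notch3 (-0.57, SE 1.29) and the target gene Hes1 (-0.59, SE 1.40) had edgeR adjusted p values of 0.934, 0.998 and 0.998.

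Genes that maintain imprints were read from a list of 22, of which 19 were tested and 0 passed (median log2 fold change -0.05). At an unadjusted p under 0.05, which 6.6% of all genes tested met, 2 genes of this list were higher in NEO1+ and 1 lower. Uhrf1 and Hells, which act with DNA methylation at replication, were higher (1.41, SE 0.34 and 1.26, SE 0.50, edgeR adjusted p 0.297 and 0.633). Tet1, an enzyme that oxidises methylcytosine, was lower (-0.88, SE 0.34, edgeR adjusted p 0.633). The next lower gene was Zfp445, whose product also guards imprints (-0.51, SE 0.30, edgeR adjusted p 0.856). Both Uhrf1 and Hells also stand in the list of S phase genes. In that list, 11 of 26 tested genes were higher at an unadjusted p under 0.05 and 0 lower, with a median of 0.79. For G2 and M phase genes it was 12 of 28 higher and 0 lower, with a median of 1.50, and 0 genes of either list passed adjustment. Of all 12203 genes tested, 380 were higher and 426 lower at this unadjusted threshold, 6.6% in all, with a median of 0.01. The summed G2 and M phase level, at 575 to 1023 CPM in the NEO1+ fraction against 189 to 436 CPM, did not overlap. For S phase the sums overlapped. NEO1+ libraries spanned 1698 to 2467 CPM there, and the NEO1- range, 956 to 1746 CPM, reached above their lowest value. Of single genes tested, 2.48% had ranges that did not overlap, and such a share was not computed for sums. The median of the 8 imprinted genes tested was -0.01, and the part of these cell cycle genes in their values was not tested.

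Markers of other cell types were read because imprinted genes such as Igf2, Dlk1 and Meg3 are also known from stromal and endothelial cells. Of 13 stromal markers, Lepr, Col3a1, Lum and Bglap were at 0 in all libraries and Col1a1 was at 0 in all but NEO1+ library 3, where it had 8 counts. The summed stromal level was 24.6 to 69.5 CPM for NEO1+ and 16.7 to 56.8 CPM for NEO1-. Of 10 endothelial markers, Cdh5, Stab1 and Sox17 were at 0 in all libraries, and the sum was 230 to 292 and 97.2 to 336 CPM, most of it from Tie1, which stem cells also express. Sox18 and Cldn5 of this list were higher in NEO1+ at an unadjusted p under 0.05 (edgeR adjusted p 0.705 and 0.550), a threshold that 6.6% of all genes tested met. Granulocyte and monocyte markers summed to 493 to 5167 CPM for NEO1+ and 382 to 3154 CPM for NEO1-, and erythroid markers to 27.1 to 513 and 9.74 to 219 CPM. The median log2 fold change of the 8 erythroid markers tested was 2.15, and Alas2 was higher in NEO1+ at an unadjusted p under 0.05 (edgeR adjusted p 0.747). High erythroid sums were confined to NEO1+ libraries 1 and 3, at 329 and 513 CPM, within that fraction. NEO1+ libraries 2, 4 and 5 had 27.1, 44.0 and 48.0 CPM, inside the NEO1- range. Lymphoid markers summed to 40.9 to 60.4 and 32.4 to 85.6 CPM, with 7 of 15 at 0, and megakaryocyte and platelet markers to 101 to 217 and 119 to 163 CPM, where Itga2b was higher in NEO1+ at an unadjusted p under 0.05 (edgeR adjusted p 0.747). These sums overlapped between the fractions, and their part in the levels of the imprinted genes was not tested.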

How the data were processed

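The data are 10 bulk RNA-seq libraries, made, per the labels' protocols, by Smart-seq2 (poly(A)-primed, full-length cDNA, 18 cycles of PCR) and Nextera fragmentation of 40 ng of cDNA, without molecular identifiers. The authors deposited raw counts per gene symbol. STAR 2.4, bcl2fastq 2.18, DESeq2 1.22.2 and mm10 are named per the submitters' processing notes; the counting tool, annotation and strand setting are not given in the sources used here. The deposited log2 values equal log2 of the count over 1 constant per library, plus 1 (largest residual 5.15e-14), and served 1 alternative.

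Genes were tested by the robust quasi-likelihood fit of edgeR 4.0.16 (R 4.3.3) after TMM scaling and filterByExpr, with Benjamini-Hochberg adjustment over all 12203 genes retained. An SE was taken from the F statistic of the fit, as the size of the log2 fold change divided by the root of F, and intervals use its t quantile. Log2 CPM values carry a prior count of 2 and were compared by exact two-sided permutation over 252 assignments (smallest p 0.00794, or 2 assignments). Where several libraries are tied at 0 the smallest possible p is larger. Gene coordinates and lengths are from GENCODE M21, on GRCm38, the assembly that mm10 names. All 10 genes were named by rule, with up to 2 genes per direction of smallest p from each imprinted and pathway list (1 gene that this rule names is not reported here); Rian, Ube3a, Peg12, Col1a1, Igf1r and the marker genes named for an unadjusted p were chosen once values were known. The members and lists were chosen with earlier results of these data known. No 2 libraries of a fraction agreed within sampling noise (chi-square per degree of freedom at least 86.7). Alternatives were DESeq2, limma-voom, limma-trend, other scalings, no filter, a covariate and libraries left out.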

Additional observations from a re-analysis of the deposited data

Results flagged for a closer look

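In 20 groups of 5 values (10 imprinted genes in each fraction, log2 CPM), 1 library lay farther from the rest than Dixon's 95% critical value allows. Chance gives 1 for values without ties, and several groups held ties at no count. Plagl1 was at 2.97 log2 CPM in NEO1- library 1, which is 7.77 CPM, while the 4 other NEO1- libraries held no count. As these 4 were tied, any count in library 1 would have been flagged, so the flag says only that Plagl1 was present in 1 NEO1- library.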

How the results depend on the processing

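The number of imprinted genes past an adjusted p of 0.05 was 0 under all 21 alternatives run, among them both libraries numbered 4 left out and each library left out in turn. Over these the log2 fold changes ran from -0.04 to 0.21 for Gnas, -0.05 to 0.15 for Ndn, -0.40 to 0.13 for Grb10, -0.19 to 0.12 for Meg3, -0.29 to 0.89 for Igf2, -0.63 to 2.19 for Igf2r, -2.18 to -0.21 for H19 and 0.53 to 2.03 for Dlk1. Signs changed for the first 6 of these, and the difference in mean log2 CPM of H19 ran from -1.77 to 0.07 when a library was left out. The count over all genes was 0 in edgeR, 146 in DESeq2, 2 in limma-voom, 1 in limma-trend on the deposited values, 1 with no scaling beyond the library total and 2 with no filter on low counts; the cause was not tested. It was 0 to 1 when a library was left out (1 without NEO1- library 1). With the replicate number as a block it was 0 in edgeR and 727 in DESeq2, and the labels do not say whether a number marks shared mice. Deviations of same-numbered libraries correlated at only 0.0040 to 0.036. Of the NEO1+ libraries, 3 of 5 correlated best with their own number, and whether a number marks a pair was not tested. With no scaling the median log2 fold change of all genes moved from 0.01 to 0.16, and it was 0.12 in limma-voom and 0.11 in limma-trend. Leaving out a library gave differences in mean log2 CPM of 1.03 to 2.38 for Dlk1 (exact permutation p 0.00794 to 0.143) and 1.59 to 3.00 for Peg3 (0.0476 to 0.167). The lowest Dlk1 value came only without NEO1- library 2, the library that broke the separation. Both ends of the Peg3 range were the smallest that its ties at 0 allow. With 45 to 323 counts where it was present at all, H19 was limited by the spread between libraries.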

Other observations

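Igf1r, the receptor through which IGF2 signals, was even in NEO1+ libraries, at 76.8, 73.5, 77.6, 81.2 and 82.6 CPM for libraries 1 to 5, and uneven in NEO1- libraries, at 42.1, 51.8, 30.7, 71.9 and 83.6 CPM. NEO1- libraries 1 to 4 lay below all NEO1+ libraries and NEO1- library 5 above them. The log2 fold change was 0.48 (SE 0.24), with an edgeR adjusted p of 0.786.

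Among the 36 pairs of imprinted genes, the lowest p belonged to H19 and Meg3, with a Pearson r of -0.84 (exact permutation p 0.0125, adjusted 0.45) and a Spearman rho of -0.73 (exact permutation p 0.0167, adjusted 0.6) over 10 libraries. Without the 2 libraries farthest from the median of H19, r was -0.82. The pair was picked after its values were seen and did not pass adjustment.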
